A study of Mus musculus with 9 samples.

Results

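Knockdown of Phf5a was compared with a control hairpin in mouse embryonic stem cells. The comparison holds 6 of the series' 9 Affymetrix whole-transcript arrays, chosen by their titles, with 3 arrays labelled shPhf5a and 3 labelled shControl. It is described over the 22180 genes named by probe sets with 1 gene symbol, each by its brightest such probe set. The cells were of the NG4 line, of 129/Sv origin, which carries a green fluorescent reporter of Nanog, and they grew on gelatin in medium with LIF. Every group received a pLKO.1 lentivirus and puromycin at 2 µg/mL for 72 h, the control group with a control hairpin and the shPhf5a group with a hairpin against Phf5a. A further group of 3 arrays, shPaf1, carried a hairpin against Paf1. It serves here to show where shPhf5a differed from another knockdown and where it did not. Each group rests on 1 hairpin, and whether the replicates were grown and infected separately is not stated in the labels. The p-values therefore reflect how far these arrays differ, possibly for technical reasons alone.

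Phf5a is a small PHD-finger protein of the SF3b complex, the part of the U2 snRNP that recognises the branch point of introns. Loss of SF3b activity is known to lead to skipped exons and retained introns, and such transcripts can be degraded or held in the nucleus. The series' title names its role in transcriptional elongation in pluripotent cells, a step in which the Paf1 complex is known to act. The arrays measure 1 value per gene and do not tell spliced from unspliced RNA.

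The hairpin lowered its target. Phf5a stood at 11.84, 12.09 and 11.89 log2 units in the control arrays and at 10.40, 11.10 and 10.60 in shPhf5a replicates 1, 2 and 3, without overlap. The fall was 1.24 log2 units (SE 0.16, 2.36-fold, limma adjusted p = 0.00024), and replicate 2 kept the highest level, at 55.9% of the control mean against 34.4% and 39.6%. The 20 embryonic stem cell markers had a mean level of 10.65 to 10.66 in the control arrays and of 10.41, 10.60 and 10.45 in shPhf5a, where 11 of them fell and 3 rose. The 15 fibroblast markers stayed at mean levels of 6.07 to 6.09 and 6.08 to 6.16, with Pdgfra (0.58) and Col5a1 (0.26, a call lost under other settings) the only members called. The 10 macrophage and blood markers lay at 6.11 to 6.19 and 5.99 to 6.12, with a fall of Cd68 by 0.42. The part of other cell types in the results was not tested, and in bulk RNA fewer cells of a type and less RNA per cell cannot be told apart.

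The response was broad, and single changes were mostly small. At a limma adjusted p under 0.05, 3713 genes were higher in shPhf5a (16.7% of those tested) and 4593 were lower (20.7%), with a median change of 0.44 log2 units in size among the called genes. Rises of 2-fold or more numbered 459 (2.07%), and falls of that size 270 (1.22%), a count that was 172 when shPhf5a replicate 1 was left out and 464 when replicate 2 was. For 10160 genes (45.8%) the ranges of control and shPhf5a arrays were apart, with shPhf5a higher in 19.9% of all genes and lower in 25.9%. The median change of all genes was -0.03, and a change shared by all genes would not be visible in arrays scaled to similar medians. Called genes were rare among dim genes, with 1.42% higher and 1.78% lower among the dimmest 4436 genes. Among the brightest 4436 genes, falls were more frequent than rises, at 41.1% against 24.9%. Of the 1109 genes in the brightest 5%, 505 fell and 237 rose.

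Replicate 2 of shPhf5a, which kept the most Phf5a, also had the smallest changes. It was the smallest of the 3 in 406 of the 459 genes that rose at least 2-fold (88.5%) and in 266 of the 270 that fell (98.5%). The median rise of the former was 1.44, 1.12 and 1.40 log2 units in replicates 1, 2 and 3, and the median change of the latter was -1.40, -0.84 and -1.26. Replicate 2 was also nearest to the control in the medians of the groups that mostly fell, but not in that of the germline genes, which was 0.15, 0.32 and 0.21. Whether the remaining Phf5a sets this order was not tested.

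**Figure D1:**
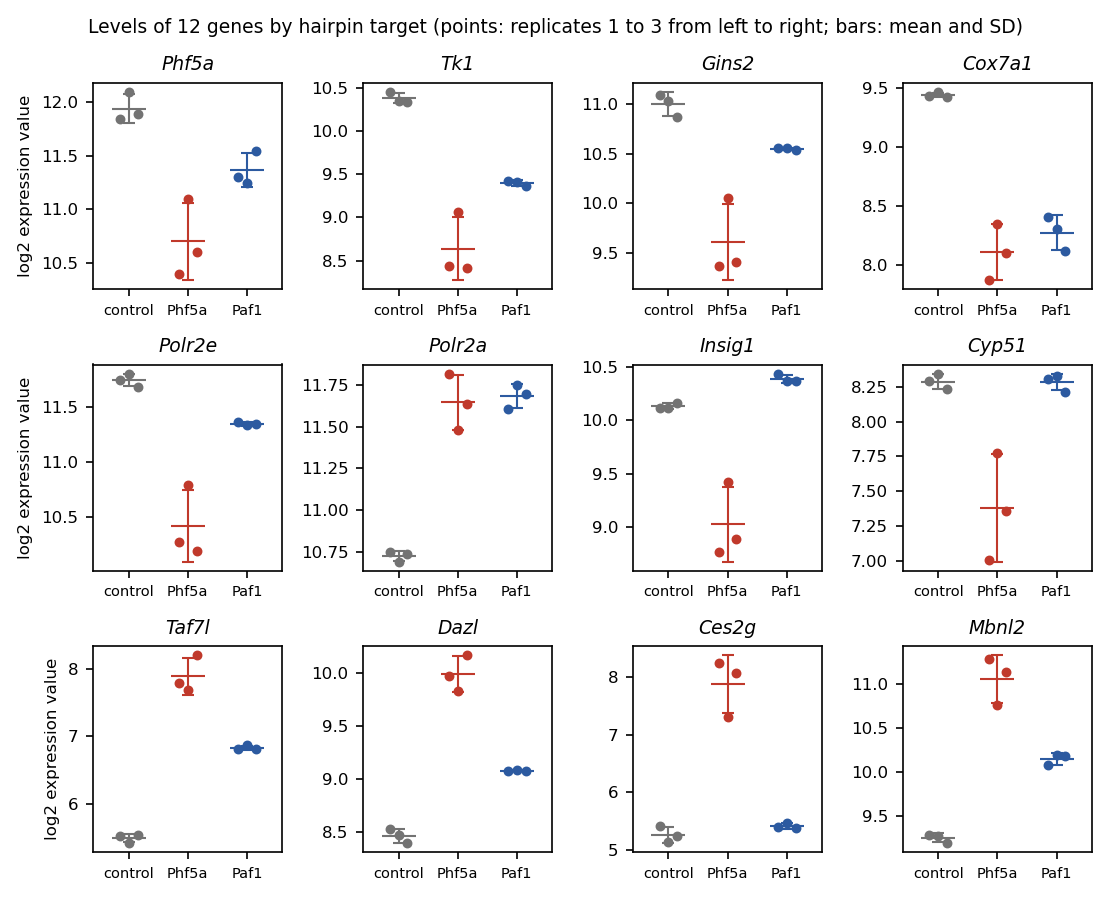
Log2 expression values of 12 genes on each array, grouped by hairpin target, with points for replicates 1 to 3 from left to right and bars for the mean and SD; each panel has its own range. In every panel shPhf5a and control arrays do not overlap, as in 45.8% of all genes, and the 12 genes were chosen with the values known. Replicate 2 of shPhf5a is the nearest of its group to the control in all 12.

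Snord13, a small nucleolar RNA that guides a modification of ribosomal RNA, was at 9.77, 10.14 and 9.80 in control and at 12.59, 12.07 and 12.58 in shPhf5a, a rise of 2.51 (SE 0.17). Rgs5, a regulator of G protein signalling best known from pericytes, rose by 2.48 (SE 0.08). Alppl2, an alkaline phosphatase, went from 5.52, 5.67 and 5.70 to 8.41, 7.69 and 8.04 (2.41, SE 0.15), and its change in shPaf1 of 0.22 was not called. Zfp36l3, a placental RNA-binding protein, rose by 2.50, Ptprn, a protein of secretory granules, by 2.25, and Gria3, a glutamate receptor subunit, by 2.24. All 6 had a limma adjusted p of 7.71e-06 or less.

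Tk1, the thymidine kinase of the S phase, was at 10.45, 10.35 and 10.34 in control and at 8.44, 9.06 and 8.42 in shPhf5a, a fall of 1.74 (SE 0.14, limma adjusted p = 2.08e-05). Snora15 fell by 1.93, Pde9a, a cyclic GMP phosphodiesterase, by 1.70, and Clmp, a junctional adhesion protein, by 1.66. Fgf17, a growth factor, fell by 1.62, Cyp11a1, which starts steroid synthesis from cholesterol, by 1.60, and Timp1, an inhibitor of metalloproteinases, by 1.60. Among genes whose higher group mean was in the top 5%, the matrix receptor Sdc4 rose by 1.59 (SE 0.05), the desmosomal protein Perp by 1.58 and the mannosyltransferase Tmtc3 by 1.55. Bright genes that fell included Dctpp1, which removes modified nucleotides, by 1.40, Gins2 of the replicative helicase by 1.39, Slc7a3, a carrier of cationic amino acids, by 1.32, and Socs2, an inhibitor of cytokine signalling, by 1.24.

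Gene groups are described by how many measured members were called, beside the shares of all genes given above (16.7% higher and 20.7% lower). Their medians are set beside -0.03 for all genes. The shares of all genes take in dim genes, which were rarely called. Among the brightest 4436 genes the shares were 24.9% higher and 41.1% lower. Groups were not matched to other genes by level, so a share near these may reflect brightness. The highest shares lower were 88.7% of mitochondrial ribosomal proteins, 81.6% of DNA replication genes, 78.9% of snRNP core proteins, 77.8% of histone variants and 76.9% of nucleotide synthesis genes. The highest shares higher were 52.6% of germline genes, 47.2% of junction genes and 44.7% of integrins and matrix genes.

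**Figure D2:**
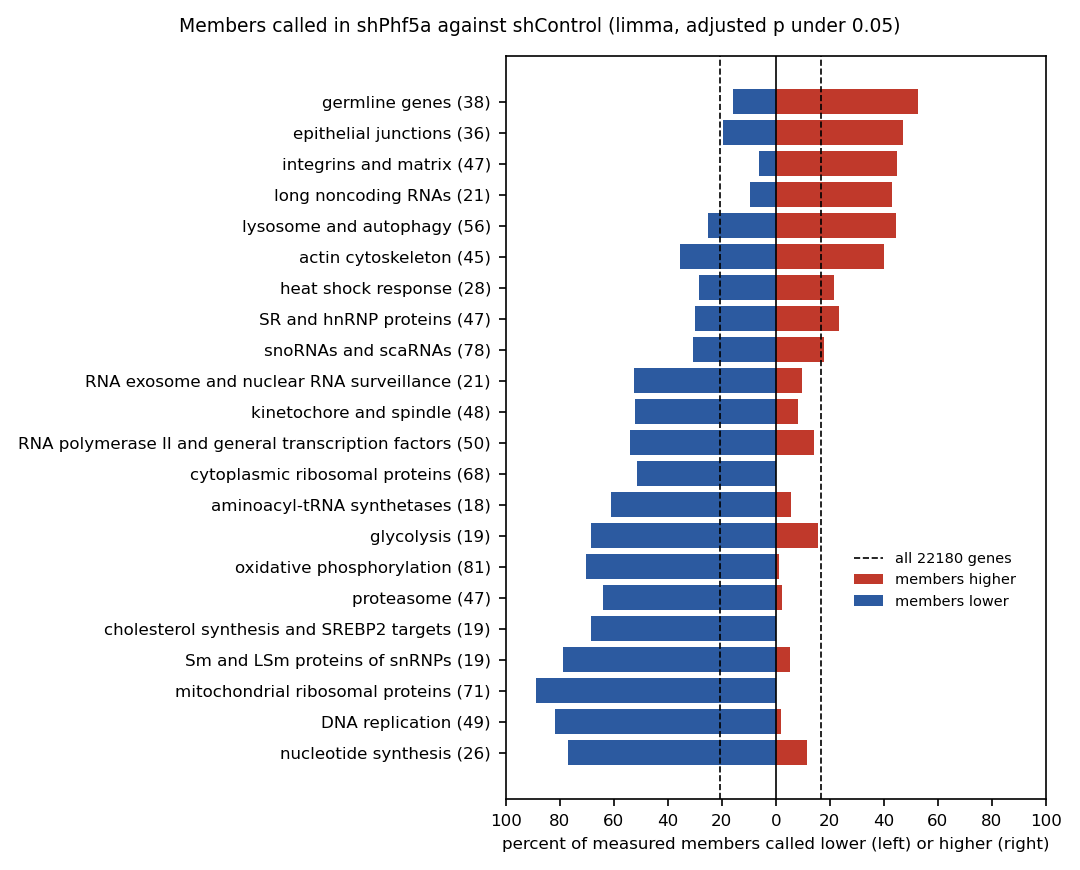
Percent of the measured members of 22 gene lists called lower (left) or higher (right) in shPhf5a against shControl by limma, with the number of measured members in parentheses and dashed lines at 16.7% higher and 20.7% lower for all 22180 genes. Mitochondrial ribosomal proteins reach 88.7% lower and germline genes 52.6% higher.

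Germline genes rose in 20 of 38 measured cases. They act in germ cells and are held silent in most other cells, partly by DNA methylation and by repressors that bind the E-box CACGTG. The rises were 52.6% of them, 6 fell (15.8%) and 12 were not called, with a median of 0.21. Taf7l, a germ cell relative of a TFIID subunit, was at 5.52, 5.42 and 5.53 in control and at 7.78, 7.68 and 8.19 in shPhf5a (2.40, SE 0.11, limma adjusted p = 1.91e-06). Dazl, an RNA-binding protein needed for germ cell entry, went from 8.53, 8.48 and 8.40 to 9.97, 9.83 and 10.17 (1.52, SE 0.08, limma adjusted p = 2.45e-06). Mael, of the piRNA pathway that silences transposons, went from 9.65, 9.77 and 9.55 to 11.04, 10.66 and 10.96 (1.23, SE 0.10, limma adjusted p = 1.48e-05). In 21 of the 38, these 3 among them, all shPhf5a arrays lay above all control arrays, as in 19.9% of all genes. In all 3 genes replicate 2 was the lowest of shPhf5a. Stk31 rose by 1.29, Tex15 by 1.17, Tex19.1 by 0.97 and the helicase Ddx4 by 0.78. Falls were seen in Tdrd12 (-1.07), another piRNA factor, in Dmrt1 (-0.76), a transcription factor of the gonad, and in Stra8 (-0.72), which starts meiosis.

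Promoters of all genes were searched for a set of motifs, of which the E-box is described for the germline genes. RefSeq promoter windows of 300 bases, 250 before and 50 after the start (GRCm38.p6), were available for 16990 of the tested genes, with 20611 windows. The motifs sought on both strands were the TATA box TATAAA, the cAMP element TGACGTCA, the AP-1 site TGANTCA, the E-box CACGTG, the GC box GGGCGG, the NF-Y box CCAAT, the ETS core TTCCGG and the NRF1 palindrome, and none contains another. The E-box stood in 42.9% of the germline windows (15 of 35, 95% Wilson interval 28.0% to 59.1%), against 8.07% of all windows and 10.6% of those of genes above the median level. Stretches of 100 bases around it are shown for the 4 germline genes with an E-box that rose most, with the E-box in capitals, each on the strand of its gene.
Taf7l, chrX:134476491-134476590, minus strand: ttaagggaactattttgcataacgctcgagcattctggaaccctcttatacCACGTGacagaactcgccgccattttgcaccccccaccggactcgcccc
Stk31, chr6:49395437-49395536, plus strand: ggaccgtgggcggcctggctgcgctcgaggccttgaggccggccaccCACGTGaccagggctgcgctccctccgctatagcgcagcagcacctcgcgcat
Mael, chr1:166238895-166238994, minus strand: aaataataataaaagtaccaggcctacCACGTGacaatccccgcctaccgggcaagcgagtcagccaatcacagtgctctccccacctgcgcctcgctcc
Slc25a31, chr3:40708731-40708830, plus strand: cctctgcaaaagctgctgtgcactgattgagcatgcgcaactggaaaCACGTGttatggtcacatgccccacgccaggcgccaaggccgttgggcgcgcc

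The E-box ends 43 bases before the start of Taf7l, 49 before that of Stk31, 217 before that of Mael and 87 before that of Slc25a31, the germ cell carrier of ADP and ATP. Of the 12 measured germline genes with an E-box in a window, 9 rose and 0 fell, with a median of 0.63. Of the 18 without, 7 rose and 4 fell, with a median of 0.18. Dazl is among the genes without one in the window. The E-box was not frequent among all strong rises, with 11.8% of the windows of genes that rose at least 2-fold and 14.7% of those that fell. A match is a run of letters and no measured site, and the motif was singled out after the values were seen.

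**Figure D3:**
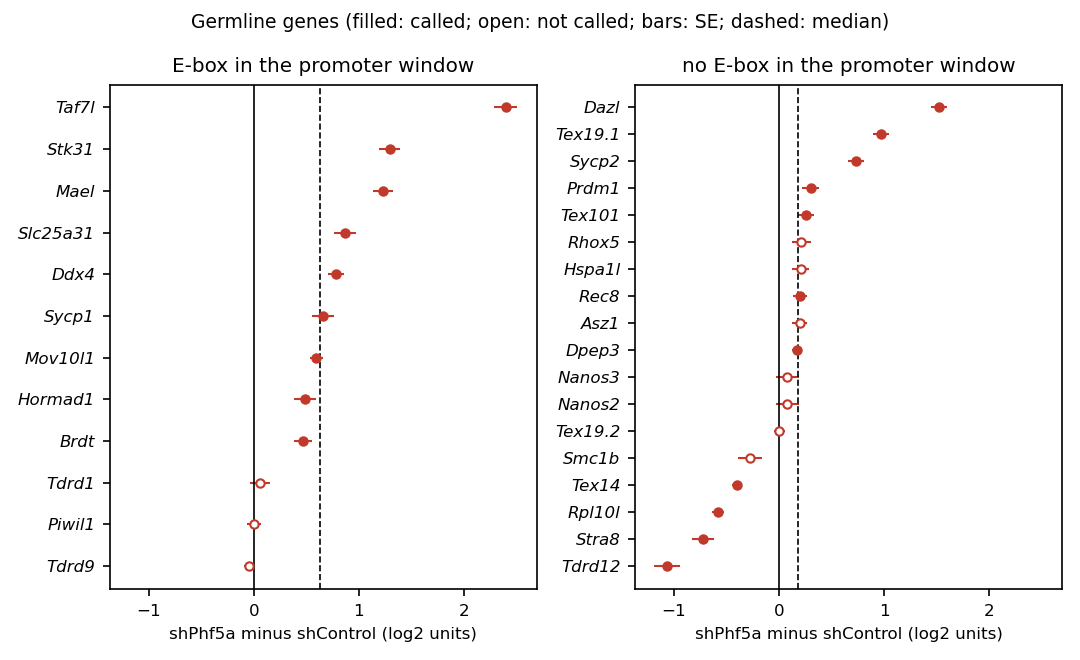
Change in shPhf5a against shControl (log2 units) of the 30 germline genes with a promoter window, split by an E-box in it; filled points passed the limma test, open points did not, bars are SE and dashed lines the medians. The median is 0.63 for the 12 genes with an E-box and 0.18 for the 18 without.

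Mitochondrial ribosomal proteins fell almost throughout. They build the ribosome that translates the messages of the mitochondrial genome. Of 71 measured, 63 fell (88.7%), 0 rose and 8 were not called, with a median of -0.51, and in 65 all shPhf5a arrays lay below all control arrays, as in 25.9% of all genes. List medians in replicates 1, 2 and 3 were -0.64, -0.40 and -0.55. The fall was shared by shPaf1, where 58 of the 71 were lower and 0 higher, with a median of -0.50. Among all genes 17.8% were lower in shPaf1. Mrpl18 was at 10.21, 10.29 and 10.15 in control and at 8.71, 9.42 and 9.06 in shPhf5a (-1.15, SE 0.14, limma adjusted p = 0.00018). Mrpl11 fell by 1.13, Mrps27 by 1.11 and Mrpl58, which releases stalled chains, by 1.06, and the weakest of the list was at 0.09.

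Promoters of this group often hold TTCCGG, the core of sites for ETS factors. It stood in 55.9% of their windows (38 of 68, 95% Wilson interval 44.1% to 67.1%), against 18.5% of all windows and 27.7% of those of genes above the median level. Falls were about as frequent without it: 31 of 35 genes with the motif fell, with a median of -0.50, and 24 of 27 without it, with a median of -0.56. Stretches are shown for 3 of the genes named above, with the motif or its complement in capitals.
Mrpl18, chr17:12916092-12916191, minus strand: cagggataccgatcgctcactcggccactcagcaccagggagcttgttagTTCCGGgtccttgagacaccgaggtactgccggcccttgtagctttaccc
Mrps27, chr13:99344686-99344785, plus strand: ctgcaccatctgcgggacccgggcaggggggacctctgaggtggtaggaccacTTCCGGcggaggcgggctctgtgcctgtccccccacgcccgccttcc
Mrpl58, chr11:115403652-115403751, plus strand: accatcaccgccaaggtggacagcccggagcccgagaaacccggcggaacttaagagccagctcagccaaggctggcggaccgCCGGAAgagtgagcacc

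Cytoplasmic ribosomal proteins, which build the main ribosome, fell less. Of 68 measured, 35 fell and 0 rose (23 fell without shControl replicate 2), with a median of -0.21, led by Rps4l (-1.07), Rpl34 (-0.88) and Rps13 (-0.76). In shPaf1 54 of the 68 were lower and 0 higher, with a median of -0.36. Many of these genes have near-identical processed copies, so that a probe set may read more than its gene. Subunits and assembly factors of oxidative phosphorylation, which makes ATP in the inner membrane, fell in 57 of 81 and rose in 1, with a median of -0.33. Cox7a1, a subunit of cytochrome oxidase, went from 9.44, 9.47 and 9.43 to 7.88, 8.35 and 8.10 (-1.33, SE 0.11, limma adjusted p = 2.18e-05). Atp5e and Atp5h of the ATP synthase fell by 1.15 and 0.93, and Ndufa7 of complex I by 0.98. The rise was of Cox6b2 (0.64), the form of a cytochrome oxidase subunit known from testis.

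Genes of DNA synthesis fell in most cases. In the DNA replication list, 40 of 49 fell and 1 rose, with a median of -0.52. The same list in shPaf1 had 32 lower and 2 higher, with a median of -0.33. Gins2 was at 11.10, 11.03 and 10.86 in control and at 9.36, 10.05 and 9.41 in shPhf5a (-1.39, SE 0.16, limma adjusted p = 0.000106). Pole2 of DNA polymerase epsilon fell by 1.30, the clamp loader subunit Rfc3 by 1.12 and the histone chaperone subunit Chaf1b by 1.02, while Chaf1a of the same complex rose by 0.32. Nucleotide synthesis genes fell in 20 of 26 and rose in 3, with a median of -0.60, the lowest of the lists shown in the plots. Besides Tk1 and Dctpp1, Dhodh of pyrimidine synthesis fell by 0.99, Nme1, a diphosphate kinase, by 0.97 and Dut, which clears dUTP, by 0.90. Ctps2 (0.50), Cad (0.33) and Dck (0.26) rose.

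Repair and mitosis genes also fell more often than they rose, in smaller shares than the genes of DNA synthesis. Of 35 genes of homologous recombination and Fanconi repair, 19 fell and 4 rose, with a median of -0.34. The checkpoint kinase Chek2 and the recombinase partner Rad54l both fell by 0.98, and the nuclease scaffold Slx4 rose by 0.54. Among 48 kinetochore and spindle genes, 25 fell and 4 rose. Spc24, which links kinetochores to microtubules, went from 9.77, 9.82 and 9.82 to 7.64, 8.67 and 8.05 (-1.69, SE 0.21, limma adjusted p = 0.000179), and Cenph and Cenpa, the centromeric histone, fell by 1.00 and 0.92. The motor Cenpe rose by 0.39. Histones made in S phase changed both ways, with 11 of 26 lower and 5 higher (3 higher without shPhf5a replicate 3): H2ac20 fell by 1.42 and H2bc9 by 0.92, whereas H2ac1, known from testis, rose by 0.74. These histone genes are near-identical, and 1 probe set may pick up more than its own gene. Of 9 histone variants, which are made outside S phase, 7 fell and 1 was higher, with a median of -0.55. The linker histone H1f10 fell by 0.77, and H2ax, which is phosphorylated at DNA breaks, by 0.42. The higher one, Macroh2a1 (0.29), lost its call without shControl replicate 2, shPhf5a replicate 2 or shPhf5a replicate 3.

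Genes of cholesterol synthesis and its control mostly fell in shPhf5a. The enzymes are driven by SREBP2, a transcription factor held back by INSIG proteins when sterols are plentiful. Of 19 genes measured, 13 fell, 0 rose and 6 were not called, with a median of -0.45, and list medians of -0.55, -0.26 and -0.47 in replicates 1, 2 and 3. Insig1, itself a target of SREBP2, was at 10.11, 10.12 and 10.16 in control and at 8.77, 9.42 and 8.89 in shPhf5a (-1.11, SE 0.14, limma adjusted p = 0.000186). Cyp51, which demethylates lanosterol, went from 8.29, 8.34 and 8.23 to 7.01, 7.78 and 7.36 (-0.90, SE 0.15, limma adjusted p = 0.00109), and the sterol reductase Tm7sf2 from 7.88, 7.97 and 7.91 to 7.01, 7.28 and 7.01 (-0.82, SE 0.07). In 13 of the 19, these 3 among them, all shPhf5a arrays lay below all control arrays, as in 25.9% of all genes. Early steps fell as well, with Mvk at -0.39, Pmvk at -0.54, Mvd at -0.62, Fdps at -0.46 and Fdft1 at -0.45. The first enzyme measured, Hmgcs1, was not called (-0.01, limma adjusted p = 0.973), nor was Srebf2, the gene of SREBP2 (0.04, limma adjusted p = 0.713). Lss (-0.08), Sc5d (-0.05), Stard4 (-0.02) and Hsd17b7 (0.16) were not called either.

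The same genes moved less in shPaf1. Their median change there was -0.04, with 3 higher and 6 lower, beside 18.0% higher and 17.8% lower among all genes. In the direct comparison of shPhf5a with shPaf1, where 12.7% of all genes were higher and 16.3% lower, 12 of the 19 were lower in shPhf5a and 0 higher. Insig1 was at 0.26 in shPaf1, which was not called, and its direct difference, shPhf5a minus shPaf1, was -1.37 (limma adjusted p = 8.01e-05). Cyp51 was at -0.00 in shPaf1, also not called, and its direct difference was -0.90 (limma adjusted p = 0.00161). Both knockdowns share the control arrays, whose means do not enter the direct difference.

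**Figure D4:**
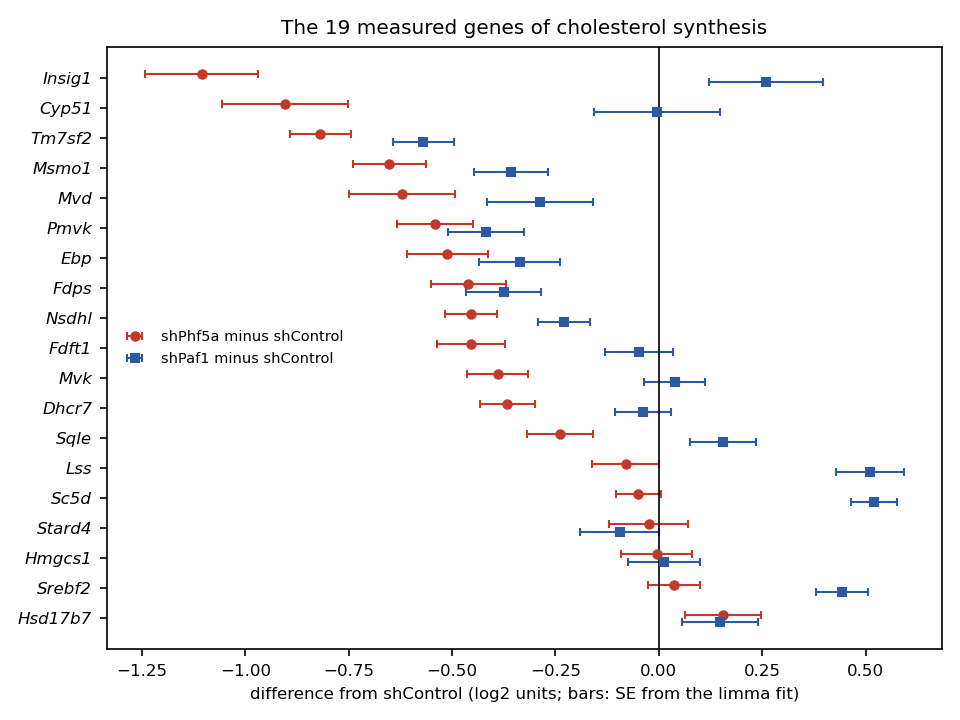
Difference from shControl (log2 units) of the 19 measured genes of cholesterol synthesis in shPhf5a (circles) and shPaf1 (squares), with bars for the SE of the limma fit; the control arrays are shared. In shPhf5a 13 of the 19 fell and 0 rose, and in shPaf1 6 fell and 3 rose.

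CCAAT, bound by NF-Y, which acts with SREBP2, stood in 83.3% of the windows of these genes (15 of 18, 95% Wilson interval 60.8% to 94.2%), against 37.7% of all windows and 38.0% of those of genes above the median level. GGGCGG, bound by Sp1, stood in the same share, against 46.5% of all windows and 64.4% of those of genes above the median level, the latter within the list's interval. All 15 genes with a window held CCAAT, so that no split by it was possible. Stretches around CCAAT or its complement, in capitals, are shown for the leading 3 genes.
Insig1, chr5:28071162-28071261, plus strand: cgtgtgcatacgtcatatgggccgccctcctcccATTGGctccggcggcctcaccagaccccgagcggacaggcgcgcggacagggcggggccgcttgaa
Cyp51, chr5:4104698-4104797, minus strand: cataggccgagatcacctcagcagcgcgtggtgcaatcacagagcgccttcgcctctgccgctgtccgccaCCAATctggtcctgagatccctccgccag
Tm7sf2, chr19:6067851-6067950, minus strand: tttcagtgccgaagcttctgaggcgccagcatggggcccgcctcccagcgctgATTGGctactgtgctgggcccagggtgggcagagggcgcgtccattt

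Genes of fatty acid and sugar metabolism changed too. Of 14 fatty acid genes, 7 fell (3 under quantile normalization) and 3 rose. The desaturase Scd1 fell by 1.05 and the carboxylase Acaca by 0.56, whereas Acacb, its mitochondrial form, rose by 0.64 and Me1, which supplies NADPH, by 0.60. Glycolysis genes fell in 13 of 19 and rose in 3, with a median of -0.30. Tpi1 went from 11.40, 11.46 and 11.47 to 10.19, 10.69 and 10.19 (-1.08, SE 0.12, limma adjusted p = 8.55e-05), the lactate carrier Slc16a3 fell by 1.01, Pfkl by 0.95 and Eno3 by 0.93. The 3 rises were of the hexokinase Hk1 (0.33) and the glucose carriers Slc2a1 and Slc2a3 (0.18 each), calls that were each lost under at least 1 other setting. Genes induced by low oxygen were mixed, with 7 of 23 higher and 6 lower. P4ha2, a collagen prolyl hydroxylase, rose by 1.78 and the carbonic anhydrase Car12 by 1.21, and Pdk1, which inhibits pyruvate dehydrogenase, fell by 1.34.

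Genes of protein turnover and of amino acid charging fell in most cases. Proteasome genes fell in 30 of 47 and rose in 1 (5 under quantile normalization), with a median of -0.35. The same list in shPaf1 had 32 lower and 1 higher. The assembly chaperone Psmg1 went from 10.70, 10.63 and 10.65 to 8.99, 9.81 and 9.21 (-1.33, SE 0.17, limma adjusted p = 0.000225), and the immunoproteasome subunit Psmb10 fell by 1.25. The rise was of Psme4 (0.21), an activator of the core particle. Aminoacyl-tRNA synthetases fell in 11 of 18 and rose in 1, led by Vars (-0.91) and Lars (-0.86). Vars was at 0.15 in shPaf1, not called, and its direct difference was -1.06 (limma adjusted p = 8.86e-05).

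Stress responses did not move one way. Of 28 heat shock genes, 6 rose and 8 fell. The small heat shock proteins Cryab and Hspb8 rose by 2.68 and 1.44, and Dnajb4 by 0.58, while Chordc1, a partner of HSP90, fell by 0.87, the immunophilin Fkbp4 by 0.68 and the mitochondrial chaperonin Hspe1 by 0.63. Hspa1b, the inducible HSP70, was at 8.68, 8.54 and 8.52 in control and at 7.49, 8.05 and 7.64 in shPhf5a (-0.85, SE 0.12), and it rose by 1.09 in shPaf1. In the endoplasmic reticulum list 6 of 26 rose and 7 fell: the sensors Ern1 (0.55), Eif2ak3 (0.52) and Atf6 (0.34) rose, and the chaperone partners Sdf2l1 (-1.23), Creld2 (-0.65) and Manf (-0.46) and the effector Xbp1 (-0.30) fell. Among 26 genes of the NRF2 and oxidative stress response, 7 rose and 6 fell. Ephx1, an epoxide hydrolase, went from 8.20, 8.28 and 8.09 to 9.84, 9.70 and 9.86 (1.61, SE 0.07, limma adjusted p = 1.03e-06), with a change in shPaf1 of -0.07 that was not called. Hmox1, which breaks down heme, rose by 0.76 in shPhf5a and fell by 0.38 in shPaf1, whereas Gsta4, a glutathione transferase, fell by 1.05.

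**Figure D5:**
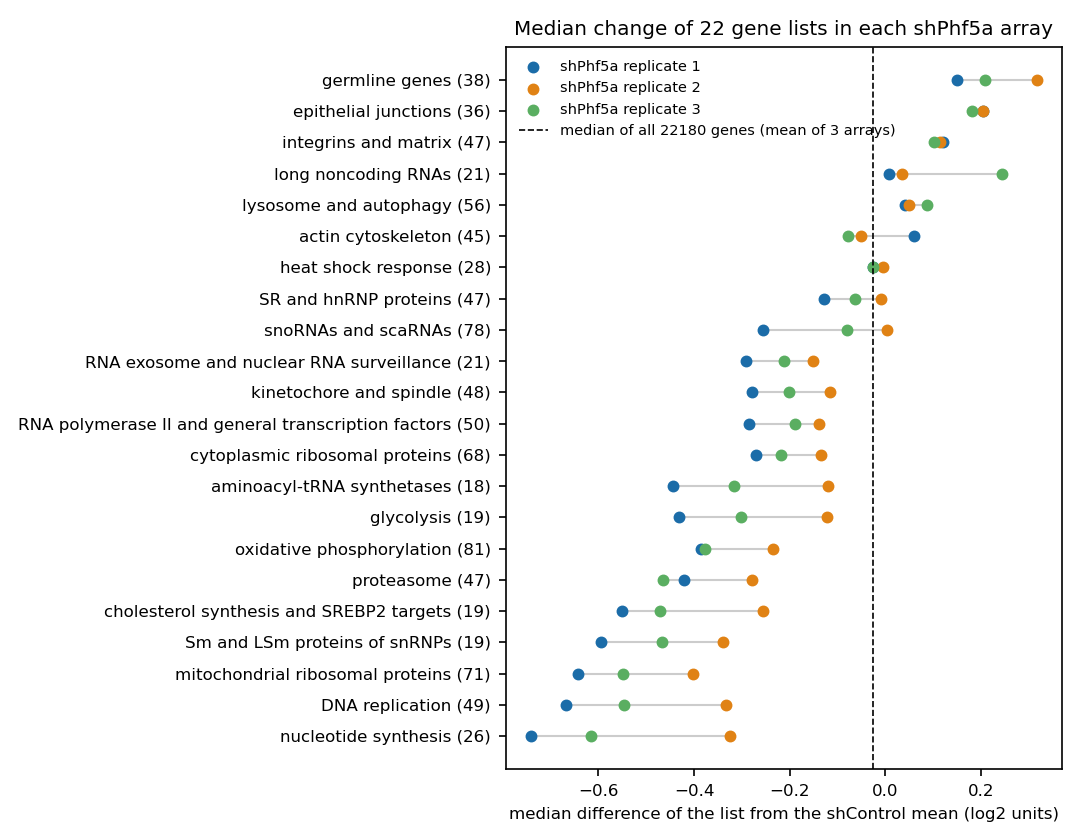
Median difference from the control mean (log2 units) of 22 gene lists in each of the 3 shPhf5a arrays, with the number of measured members in parentheses and a dashed line at the median of all genes, -0.03. From nucleotide synthesis up to the RNA exosome, replicate 2 has the median nearest to 0 in every list shown.

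Of the lists of splicing factors outside the SF3b complex, only that of snRNP core proteins fell in most members. Of 19 snRNP core proteins, mostly Sm and LSm proteins, which form the rings of spliceosomal and decay particles, 15 fell and 1 rose, with a median of -0.48. Lsm7 fell by 1.08 and Lsm2 by 0.92, and the rise was of Snrpc (0.65), a protein of the U1 particle that is no part of such a ring. In the U5, U4/U6 and Prp19 list, 9 of 43 rose (20.9%) and 16 fell (37.2%). Neither share was above that of the brightest 4436 genes (24.9% higher and 41.1% lower). Bcas2 of the Prp19 complex was at 10.52, 10.42 and 10.39 in control and at 9.05, 9.53 and 9.14 in shPhf5a (-1.20, SE 0.11, limma adjusted p = 3.87e-05), Isy1 and Ppil1 fell by 1.03, and Cwc22 (1.24), Prpf39 (1.05), Aqr (0.59) and the helicase Snrnp200 (0.56) rose. Of 10 proteins of the minor spliceosome, 4 rose, with Snrnp35 (0.51) and Rnpc3 (0.49) leading, and 4 fell, with Snrnp25 (-1.27) and Zmat5 (-0.67) leading.

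SR and hnRNP proteins and other splicing regulators rose in 11 of 47 (23.4%) and fell in 14 (29.8%), shares not above those of the brightest 4436 genes. The rises were 7 when shControl replicate 1 or 3 or shPhf5a replicate 3 was left out. Mbnl2, an RNA-binding regulator of alternative exons, went from 9.29, 9.27 and 9.19 to 11.29, 10.76 and 11.14 (1.81, SE 0.11, limma adjusted p = 5.11e-06). Its relative Mbnl1 rose by 0.83 in shPhf5a and fell by 0.35 in shPaf1. The SR protein kinases Srpk2 and Srpk1 fell by 0.58 and 0.54. Nonsense-mediated decay, which removes transcripts with early stop codons, had 4 of 15 genes higher and 3 lower. Upf2 rose by 1.27 (SE 0.08) and Smg6 by 0.65.

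Subunits of the transcription machinery moved in opposite directions within the same complexes. Of 50 genes of RNA polymerase II and the general factors, 27 fell and 7 rose, with a median of -0.21, and Taf7l above is counted among the rises. Polr2a, the catalytic subunit, was at 10.75, 10.69 and 10.74 in control and at 11.82, 11.48 and 11.64 in shPhf5a (0.92, SE 0.08, limma adjusted p = 2.66e-05), and the second largest subunit Polr2b rose by 0.43. Polr2e, a small shared subunit, went the other way, from 11.75, 11.80 and 11.68 to 10.27, 10.79 and 10.20 (-1.32, SE 0.13, limma adjusted p = 4.97e-05), and Polr2i and the TFIIF subunit Gtf2f2 fell by 1.03 and 1.07. Mediator, which links activators to the polymerase, had 9 of 33 genes higher and 10 lower (16 lower with array weights). Its kinase module and tail genes Med12l (0.96), Med23 (0.61), Med13 (0.48) and Med12 (0.34) rose, and Med11 (-1.68), Med4 (-0.98) and Med18 (-0.81) of the core fell.

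RNA 3' end and decay complexes held more falls than rises. Only the exosome list had a share lower above the 41.1% of the brightest 4436 genes. Cleavage and polyadenylation factors fell in 10 of 25 (40.0%) and rose in 1. The falls were 16 with each array centred on its median, and the rises 4 under quantile normalization. Ppp1ca fell by 0.65, and the rise was of Rbbp6 (0.43). Integrator, which cuts small nuclear RNAs and attenuates genes, had 5 of 14 genes lower (35.7%) and 2 higher (4 under quantile normalization). Its genes lower were 3 under quantile normalization or when shControl or shPhf5a replicate 1 or 3 was left out. Its nuclease Ints11 was at -1.02. The RNA exosome and its cofactors fell in 11 of 21 (52.4%), with Exosc5 at -0.95 and Exosc2 at -0.79. They rose in 2 (5 under quantile normalization), led by Zfc3h1 (0.87). In the list of chromatin remodellers 10 of 37 rose (16 under quantile normalization) and 7 fell: the ATPase Smarca2 rose by 1.27 and Srcap by 0.84, and Smarca1 fell by 1.02 and Phf10 by 0.86.

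Long noncoding RNAs were higher in 9 of 21 and lower in 2, with changes from -0.45 to 2.65. Xist, which silences the X chromosome, was at 6.68, 6.83 and 6.99 in control and at 9.71, 8.37 and 9.57 in shPhf5a (2.38, SE 0.29, limma adjusted p = 0.000176). Kcnq1ot1, an imprinted antisense RNA, rose by 0.89, Tug1 by 0.61, Ftx, which lies beside Xist, by 0.57 and Malat1 by 0.53. Small nucleolar and Cajal body RNAs were measured in 78 cases, of which 14 rose and 24 fell, with a median of -0.14. In shPaf1 4 rose and 47 fell, with a median of -0.52, and in the direct comparison 41 were higher in shPhf5a and 2 lower. Snord16a rose by 1.29 in shPhf5a and fell by 0.85 in shPaf1. Most of these RNAs are cut from introns of host genes, and a probe set cannot tell the mature RNA from its host's intron. Among host genes Snhg11 rose by 1.47 and Snhg1 by 0.31, and the latter fell by 0.95 in shPaf1. Of 10 other structural RNAs, 4 rose and 4 fell. Rnu3a, the U3 RNA of ribosome assembly, rose by 1.32 and the U12 RNA of the minor spliceosome, Rnu12, by 0.92. The Y RNAs Rny3 and Rny1 fell by 2.10 and 0.94, and the vault RNA Vaultrc5 by 1.01.

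Of 478 microRNA genes, 43 were higher (9.0%) and 22 lower (4.6%). The counts were 65 and 39 with array weights, and 23 and 13 with only genes above the median level tested. The probe sets read the gene region of the precursor and not the mature microRNA. RefSeq mature sequences were found for 54 of the 65 called genes. They are shown for genes that changed in known clusters or families, with the seed, bases 2 to 8 from the 5' end, in capitals.
miR-200b-3p: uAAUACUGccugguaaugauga
miR-200a-3p: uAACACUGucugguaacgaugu
miR-290a-3p: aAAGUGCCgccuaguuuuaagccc
miR-34a-5p: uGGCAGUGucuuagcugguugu
miR-18b-5p: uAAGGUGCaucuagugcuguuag
miR-363-3p: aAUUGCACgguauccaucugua
miR-19a-3p: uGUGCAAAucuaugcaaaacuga

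Mir200b and Mir200a are neighbours on chromosome 4, and both belong to a family that maintains epithelial character. Mir200b went from 6.13, 6.03 and 6.05 to 7.58, 7.19 and 7.77 (1.45, SE 0.13, limma adjusted p = 3.28e-05), and its change in shPaf1 of -0.10 was not called. Mir200a rose by 0.59. Mir290a, of the cluster that marks embryonic stem cells, rose by 1.02 in shPhf5a and fell by 0.76 in shPaf1. Mir34a, a known target of p53, rose by 0.92. Mir18b and Mir363 lie in 1 cluster on the X chromosome and fell by 1.51 and 1.41, and Mir19a of the related cluster on chromosome 14 fell by 1.24. Array 2 of shPhf5a stood nearest to the control in Mir18b, at 6.62 against 5.28 and 5.58, with control arrays at 7.21 to 7.49.

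Many junction and matrix genes rose. Of 36 epithelial junction genes, 17 rose (47.2%) and 7 fell, with a median of 0.15. Dsp, the desmosomal plaque protein, went from 7.42, 7.30 and 7.31 to 9.49, 8.98 and 9.38 (1.94, SE 0.12, limma adjusted p = 4.81e-06), and Cdh2, Cdh3 and Tjp1 rose by 1.07, 0.84 and 0.80. Epcam, present in undifferentiated cells, fell by 0.66. In shPaf1 18 of the 36 were higher and 4 lower, beside 18.0% and 17.8% of all genes. Of 47 integrin and matrix genes, 21 rose (44.7%) and 3 fell. Lama5, a laminin chain, was at 9.03, 8.99 and 9.02 in control and at 10.63, 10.34 and 10.58 in shPhf5a (1.50, SE 0.07, limma adjusted p = 1.91e-06), and Thbs1 and Itga8 rose by 1.55 and 1.50. The falls were of Itga9 (-0.94), Itgb7 (-0.88) and Lama1 (-0.38). In shPaf1 26 of the 47 were higher and 2 lower, with a median of 0.28 against 0.11 in shPhf5a. In the direct comparison 5 of the 47 were higher in shPhf5a and 17 lower, beside 12.7% and 16.3% of all genes. Of 49 keratins 6 rose and 3 fell, or 7 fell without shPhf5a replicate 1 and 9 with array weights. Keratin changes ran from -2.01 to 2.49, and Krt19, of simple epithelia, rose by 0.98.

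Actin genes changed in both directions, with 18 of 45 higher and 16 lower. Changes ran from -1.13 to 3.80, and the largest rise is not among those named. Beside Ahnak (1.36), S100a6, a calcium-binding protein, rose by 1.63, Anxa3 by 1.28 and Myh9, a nonmuscle myosin, by 0.93. Tmsb4x, which binds actin monomers, fell by 1.13. Acta2, smooth muscle actin, was at 8.28, 8.22 and 8.22 in control and at 7.43, 7.58 and 7.30 in shPhf5a (-0.80, SE 0.07), but it rose by 1.99 in shPaf1. The direct difference of Acta2, shPhf5a minus shPaf1, was -2.79 (limma adjusted p = 1.1e-07). In that comparison 29 of the 45 actin genes were lower in shPhf5a and 5 higher.

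Secreted ligands rose in 13 of 39 and fell in 13. Igf2, an imprinted growth factor, went from 7.09, 7.38 and 7.54 to 9.72, 8.64 and 9.28 (1.87, SE 0.23, limma adjusted p = 0.000157), Wnt3 and Wnt8a rose by 1.43 and 1.04, Bmp7 by 1.09 and Lif by 1.03. Tgfb1 fell by 1.35, Fgf15 by 1.17 and Inhbb by 1.11. Lysosome and autophagy genes were higher in 25 of 56 (44.6%) and lower in 14, with a median of 0.06. Gaa, which breaks down glycogen, rose by 1.34 and the protease Ctsd by 1.12, whereas the glycosidases Manba and Gla fell by 1.14 and 1.03. The list moved further in shPaf1, with 34 higher and 5 lower, and directly 30 were lower in shPhf5a and 10 higher.

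In the BCL2 family 5 of 18 rose (3 without shControl replicate 1 or 3 or shPhf5a replicate 3) and 4 fell. Pmaip1, the proapoptotic Noxa, went from 7.36, 7.15 and 7.27 to 8.29, 8.35 and 8.42 (1.09, SE 0.07, limma adjusted p = 5.4e-06), with a change of 0.03 in shPaf1 that was not called, and Bok fell by 0.79. Blood and endothelial regulators rose in 8 of 32 and fell in 7. The transcription factors Gata2 and Gata3 rose by 2.84 and 1.22 and Tek, the angiopoietin receptor, by 1.09, and Epor fell by 0.76. Of 41 neuronal and synaptic genes 4 rose and 15 fell, among them Stmn3 (-1.34), Ina (-0.82) and Tubb3 (-0.80), which act in the neuronal cytoskeleton. Of 362 zinc finger genes named Zfp, 83 were higher (22.9%) and 64 lower (17.7%), and of 333 solute carriers 70 were higher and 64 lower. Olfactory receptors, silent in most tissues and dim here, were called in 25 of 1105 upward and 20 downward. With only genes above the median level tested, 2 were called upward and 4 downward. The upward count reached 43 with array weights (41 without shPhf5a replicate 2), and the downward count 42 with each array centred on its median.

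Neighbouring genes that changed together were sought along 22139 genes placed by RefSeq order, as runs with at least 3 genes called at 2-fold or more in 1 direction. There were 7 runs of rises and 1 of falls. Of the rises, 5 were runs of gene families (Tdpoz, Zscan4, Usp17l) or of predicted loci, whose members may share sequence that a probe set reads. The carboxylesterase genes Ces2e, Ces2f and Ces2g formed another run, and they too are a gene family to which this limit applies. Ces2g went from 5.41, 5.13 and 5.23 to 8.25, 7.31 and 8.08, and the rises of Ces2e, Ces2f and Ces2g were 1.75, 1.06 and 2.62. None of the 3 was called in shPaf1 (0.18, 0.16 and 0.16), and all were higher in shPhf5a than in shPaf1 in the direct test (limma adjusted p from 1.77e-05 to 0.00222). The remaining run of rises held Gm53, Mir196a-1 and Hoxb9, with 1.10, 1.28 and 1.10. The run of falls held the DNA glycosylase Mutyh, Hpdl and the heme enzyme Urod, which fell by 1.31, 1.92 and 1.00, with Zswim5 between them at 0.29, a call lost under other settings.

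Strong changes were often shared with shPaf1. Of the 459 genes that rose at least 2-fold in shPhf5a, 58 were not called in shPaf1 and 7 fell there. Of the 270 that fell at least 2-fold, 42 were not called in shPaf1 and 7 rose there. The median changes of these genes in shPaf1 were 0.94 and -0.73, and both knockdowns share the control arrays. The direct comparison with shPaf1 called 6430 genes (29.0%), 2806 higher and 3624 lower in shPhf5a. Of the 459 rises, 258 were called higher in shPhf5a than in shPaf1, 52 lower, and 149 were not called. Of the 270 falls, 152 were called lower in shPhf5a, 10 higher, and 108 were not called. These genes were selected by their change in shPhf5a, which favours larger changes there. Large direct differences were seen in Dglucy, a glutamate cyclase, which rose by 1.76 in shPhf5a and fell by 0.51 in shPaf1, in Fbp1 of sugar synthesis (1.73 and -0.16) and in the hepatocyte growth factor-like Mst1 (1.82 and -0.05), the last 2 not called in shPaf1. In the other direction the protease Bmp1 rose by 1.04 in shPhf5a and by 3.07 in shPaf1, and the phosphatase Ppm1j fell by 1.46 in shPhf5a and rose by 0.47 in shPaf1.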

How the data were processed

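The values analysed were the log2 expression values of 33793 probe sets that the authors deposited for 9 arrays, 3 per group. That they are on a log2 scale was read from their range, 4.35 to 13.69, and no label or header used here names the software or normalization. Array medians were 6.22 to 6.31, and the number of arrays limits the precision. Probe sets were named by the platform annotation: 23521 had 1 symbol, 1814 had several and 8458 had none, and only the first were named. Genes read only by the others are left out. In the limma test over all probe sets, 25.7% of those with several symbols were called higher and 17.6% lower. Of these, 96 were at least 2-fold higher and 23 at least 2-fold lower. Among those with 1 symbol, 15.9% were called higher and 19.8% lower. Of genes with several probe sets (1082) the brightest by its mean across the 9 arrays represents the gene, which left 22180 genes with no filter on low values.

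Group means were fitted with limma 3.58.1 (R 4.3.3, lmFit and eBayes) over all 9 arrays, and p-values were adjusted by the Benjamini-Hochberg method over all 22180 genes. The groups share an estimate of spread for each gene, although shPhf5a arrays varied more. Array weights were 0.458, 0.351 and 1.81 in shPhf5a and 1.04 to 1.5 in the other groups. The SE and p-values printed for shPhf5a may therefore be too small. With the 6 arrays alone, the limma adjusted p of Phf5a was 0.00214. A gene is called at an adjusted p under 0.05. Recovery was tried on data simulated with independent normal noise, the same spread in every group and 67, 67 and 66 changed genes. Of genes changed by 0.5, 1 and 2 log2 units, 76.1%, 92.5% and 100% were recovered, with 12 false calls among 21980 unchanged genes. The real arrays had many more called genes and unequal spread, so these rates need not hold for them. No 2 arrays were copies (highest correlation 0.998). Lists were described by counts and medians, with no set test. Same-numbered replicates of the groups had deviations correlated at -0.058 to 0.106, so the numbers were not used as pairs. There were 18 alternatives, among them quantile normalization, centring, other treatments of probe sets, array weights, the 6 arrays alone, the replicate block and leaving out each array.

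Promoters and microRNA sequences are from RefSeq tables (GRCm38.p6). Protein lengths were planned and were not analysed here.

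Members and lists were chosen with earlier results of these data known. Named genes are Phf5a, the largest called changes above the median level, those in the top 5% of levels, up to 6 called members per list and direction with others needed to describe a list, the largest direct differences and members of runs. Predicted loci and olfactory receptors were left out of the ranking. Not every eligible gene is printed, so those named for a list need not be its largest changes.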

Additional observations from a re-analysis of the deposited data

Results flagged for a closer look

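Probe sets with no gene in the platform annotation took no part in the comparisons above. Of these 8458, 144 were called and at least 2-fold higher in shPhf5a than in shControl, and 44 were called and at least 2-fold lower, by the same limma test over all probe sets. The largest rise was 3.01 log2 units (SE 0.13), from 6.70, 6.77 and 6.51 to 9.71, 9.39 and 9.90, and the largest fall was 2.08 (SE 0.29), from 11.61, 11.65 and 11.50 to 8.96, 10.19 and 9.36. The transcripts they read are not named here.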

How the results depend on the processing

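The fall of Phf5a kept its direction and call under all 18 alternatives, and the counts called in each direction stayed within 1.5 times of those reported. They were 3104 to 4106 genes higher and 3819 to 5450 lower where genes were tested, and 5057 and 5639 probe sets where all probe sets were tested, of which 722 were at least 2-fold higher. Genes at least 2-fold lower ranged from 172 (without shPhf5a replicate 1) to 464 (without shPhf5a replicate 2). With the replicate block, 3659 genes were higher, 4551 lower and 6255 different from shPaf1. Centring each array on its median gave 3372 higher and 5382 lower, and quantile normalization 4019 and 4496. Of 235 named genes called against shControl, 228 kept the call under every alternative, and Col5a1, Hk1, Macroh2a1, Slc2a1, Slc2a3, Sqle and Zswim5 lost it under at least 1. Of 102 list counts, 66 stayed within 1.5 times. The medians of the splicing regulators, endoplasmic reticulum, NRF2, hypoxia, Integrator, actin, olfactory and vomeronasal lists changed sign under quantile normalization, and those of the snoRNA hosts and Zfp genes under centring. The cause was not tested.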
